A study of Sus scrofa with 10 samples.

Results

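The COL1A1-rich fibroblasts were the cells in which COL1A1, the gene of the alpha-1 chain of type I collagen, gave at least 5 UMIs and at least 0.1% of all UMIs of the cell. A UMI (unique molecular identifier) is a tag that counts 1 captured RNA molecule. A cell was left out if it had more than 2 UMIs of the endothelial gene PECAM1, more than 5 UMIs of the microglial genes C1QA and C1QB together, or 5% or more of its UMIs from HBB, the beta globin gene. CLDN5, which was meant to be summed with PECAM1, was not analysed here. Of 28229 cells in 10 libraries, 298 (1.06%) were COL1A1-rich fibroblasts. Because COL1A1, PECAM1, C1QA, C1QB and HBB chose the cells, their levels in these cells are a description and not a result.

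Fibroblasts are the cells that lay down collagen fibres and the proteoglycans and glycoproteins between them. In the brain they sit in the meninges, the pia, arachnoid and dura that wrap the cortex, and around the larger vessels. During fetal life the meninges also anchor the basement membrane at the surface of the cortex and release signals such as retinoic acid, bone morphogenetic proteins and the chemokine CXCL12 to the neurons and progenitors beneath.

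The study captured cells from the medial entorhinal cortex (MEC) of fetal and adult pigs, and no treatment was compared. Fresh tissue was dissociated with papain for the whole-cell libraries, which were 1 at embryonic day 50 (E50_1, a pool of 3 brains), 3 at E60 (E60_1 and E60_2 from 1 brain each, E60_3 from 2 brains), 3 at E70 (E70_1 from 2 brains, E70_2 and E70_3 from 1 brain each, by the labels) and 1 from an adult brain (Adult_1). Nuclei from frozen tissue were sorted by their DNA stain for 1 library at E70 and 1 from the adult, each from 1 brain. The study's own sample list differs from the labels in the number of brains behind E70_1 and E70_3. Pooled brains could not be told apart, and with so few libraries the p-values below measure only the spread between these libraries.

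The libraries held 493 to 8171 cells and 2336865 to 55755512 UMIs. Replicate libraries existed for whole cells at E60 and at E70. Of the 449 cell barcodes found in more than 1 library, 9 were carried by fibroblasts. The libraries shared at most 57 barcodes in any pair. Scrublet, which scores doublets, called 183 cells and 6 of the fibroblasts, but it called 0 of the 8171 cells of E60_1 and 0 of the 3479 cells of E60_2, so it had not worked there.

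The fibroblasts came almost entirely from the E50 and E60 whole cells. They numbered 120 of 5506 cells in E50_1, which is 2.18% (exact 95% binomial interval 1.81 to 2.60%). In the E60 libraries they numbered 30 of 8171 cells in E60_1, 19 of 3479 cells in E60_2 and 122 of 2696 cells in E60_3, or 0.367%, 0.546% and 4.53%. The share in E60_3 was thus 12.3 times that in E60_1, although both were labelled as the same stage. The E70 libraries held 1 fibroblast among 493 cells, 1 among 617 cells and 2 among 3120 cells, or 0.203%, 0.162% and 0.0641%. Adult_1 held 3 among 737 cells (0.407%, interval 0.0840 to 1.18%). No fibroblast was found among 858 E70 nuclei or among 2552 adult nuclei. Taken as 3 divided by the number of nuclei, the limits on the share were 0.350% and 0.118%. The upper ends of the exact 95% binomial intervals were 0.429% and 0.144%. These limits hold for nuclei that meet the rule and not for fibroblast nuclei as such. The rule asks for 5 UMIs of COL1A1, and the median was 2616 UMIs per E70 nucleus and 690 per adult nucleus. How many fibroblast nuclei could reach it was not tested. These intervals and limits cover counting error only.

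**Figure D1:**
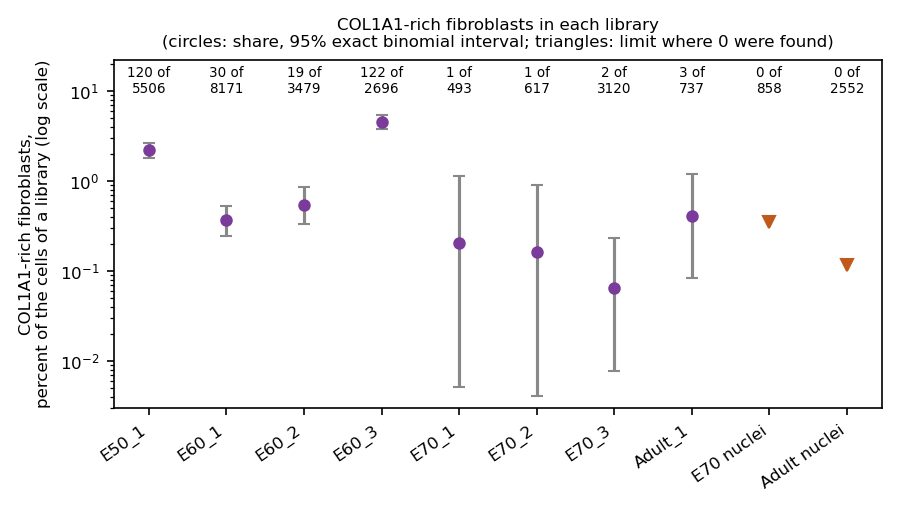
The share of COL1A1-rich fibroblasts among the cells of each library is plotted on a log axis, with the numbers of cells above. Bars give the exact 95% binomial interval. Where 0 were found, a triangle marks 3 divided by the number of cells. E50_1 and E60_3 stand at 2.18% and 4.53%, and the 3 E70 libraries at or below 0.203%.

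The comparison of E60 with E70 asked whether the share of fibroblasts differed between these stages. Fibroblasts made up 1.81% ± 2.35 of the cells at E60 on average (SD over 3 libraries), against 0.143% ± 0.0713 at E70 (SD over 3 libraries). E70 minus E60 was -1.67 points. Every E60 library lay above every E70 library, and the two-sided exact permutation test gave p = 0.1, which is the smallest value that 3 libraries against 3 allow. The groups overlapped when fibroblasts had to have at least 10 UMIs and 0.2% of UMIs from COL1A1 (exact permutation p = 0.5). Without E60_3 the difference was -0.314 points. Within the sequencing pool that E60_1 shared with E70_1 the share was 1.81 times higher at E60, and within the pool of E60_3 and E70_3 it was 70.6 times higher.

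In the fetal libraries with at least 10 fibroblasts (E50_1, E60_1, E60_2 and E60_3, with 291 of the 298 cells) the median number of UMIs per fibroblast was 12106, 4502.5, 6047 and 11658. The summed UMIs of the fibroblasts were 1539417 in E50_1, 141950 in E60_1, 137466 in E60_2 and 1536193 in E60_3, so values from E60_1 and E60_2 were the less precise. Levels below are UMIs of a gene per 1000000 UMIs of these summed cells (CPM), given in the order E50_1, E60_1, E60_2 and E60_3. They compare 1 gene between cells or libraries, and not genes with each other, because the kit reads a tag from the 3′ side of each RNA. Comparison cells of the same libraries were mural (at least 5 UMIs of RGS5 and PDGFRB), endothelial (at least 5 UMIs of PECAM1), microglial (over 5 UMIs of C1QA and C1QB) or all cells outside the fibroblasts. The mural class of E60_3 held only 7 cells. Since the fibroblasts were picked by expression in these same cells, their difference from other cells was not tested.

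The threshold was a soft edge. The lowest COL1A1 share in a fibroblast was 0.1005% of UMIs, and the highest in a cell with at least 5 UMIs that fell short was 0.0997%. There were 36 such cells under the limit, and 28 fibroblasts lay between 0.1% and 0.15%. The rules on PECAM1, C1QA, C1QB and HBB took away 16 of 314 cells. Of the cells outside the fibroblasts, 19.9% had at least 1 UMI of COL1A1 in E50_1, and between 2.38% and 7.42% in the E60 libraries.

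The label fibroblast was checked against collagen and proteoglycan genes that the rule did not use. COL3A1, which forms type III collagen, had 3598, 3064, 2953 and 2610 CPM in the fibroblasts, against 123 to 667 CPM in mural and 28.8 to 89.4 CPM in microglial cells. After thinning every cell to 2000 UMIs, 93.3% to 100% of the fibroblasts kept a UMI of COL3A1, against 2.3% to 4.7% of microglial cells. Thinned mural cells kept one in 40.4%, 68.6% and 62.7% of cells in E50_1, E60_1 and E60_2. What the microglial COL3A1 UMIs come from was not tested. DCN, which encodes the proteoglycan decorin that coats collagen fibrils, had 1202, 395, 727 and 481 CPM, against 1.17 to 22.6 CPM in all other cells. A UMI of DCN was kept by 46.7% to 85.8% of the thinned fibroblasts and by 0.1% to 3.1% of the thinned microglial cells. Thinned mural cells kept one in 3.8%, 1.1% and 2.9% of cells in E50_1, E60_1 and E60_2. The fibroblast marker PDGFRA stood apart from these, at 11.7, 28.2, 7.27 and 11.7 CPM, against 1.27 to 4.99 CPM in microglial and 4.35 to 9.14 CPM in all other cells. It was higher than in each of these classes in 4 of 4 libraries, but from only 41 UMIs in 36 fibroblasts. A UMI was found in 12.5%, 13.3%, 5.26% and 13.1% of the fibroblasts against 1.57%, 1.39%, 2.10% and 7.30% of microglial cells, and after thinning in 2.5%, 3.33%, 0% and 2.46% against 0.787%, 0.607%, 0.840% and 1.46%. FOXC1, a transcription factor needed for the meninges to form, gave 0.650 CPM (1 UMI) in E50_1 and was at 0 in the E60 fibroblasts. It was also at 0 in mural and microglial cells, and at most 0.647 CPM in endothelial cells. With so few UMIs in any class, FOXC1 does not bear on the label. FOXC2 was at 0 in the fibroblasts of all 4 libraries.

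Genes of type I collagen were described first, since COL1A2 encodes the alpha-2 chain that joins 2 copies of the COL1A1 chain. COL1A1 had 11681, 3346, 2088 and 2810 CPM. COL1A2, which the rule did not use, had 11944, 3374, 3725 and 3923 CPM, against 96.6 to 603 CPM in mural, 200 to 389 CPM in microglial and 64.1 to 104 CPM in all other cells. After thinning, 96.7% to 100% of the fibroblasts kept a COL1A2 UMI, as did 16.8% to 33.2% of microglial cells of the same libraries. Among thinned mural cells the share was 40.4%, 61.7% and 64.7% in E50_1, E60_1 and E60_2. COL1A1 and COL1A2 were both highest in E50_1 and varied less among the E60 libraries, at 2748 ± 632 and 3674 ± 278 CPM (SD, n = 3).

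The bases before the annotated starts of COL1A1 and COL1A2 are shown because these genes encode both chains of type I collagen. They were read from the RefSeq pig genome Sscrofa11.1, 5′ to 3′ on the strand of the gene, and each window is the 200 bases that end at the last base before the start used by most RefSeq mRNA models. COL1A1 lies on the minus strand (chr12:26397042-26397241) and COL1A2 on the plus strand (chr9:74174284-74174483). Capitals mark CCAAT or TATAAA, each searched on both strands, and no matches overlapped.
COL1A1: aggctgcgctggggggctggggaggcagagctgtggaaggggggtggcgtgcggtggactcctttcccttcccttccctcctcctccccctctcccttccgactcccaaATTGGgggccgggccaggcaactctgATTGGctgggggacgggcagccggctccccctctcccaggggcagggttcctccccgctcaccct
COL1A2: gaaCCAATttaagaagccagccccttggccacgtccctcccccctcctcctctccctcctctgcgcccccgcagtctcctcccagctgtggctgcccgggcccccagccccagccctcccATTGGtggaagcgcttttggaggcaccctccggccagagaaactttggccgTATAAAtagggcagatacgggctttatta
COL1A1 had 2 CCAAT matches, which began 91 and 65 bases before the start. COL1A2 had 2 CCAAT matches, 197 and 80 bases before the start, and 1 TATAAA match 29 bases before it. Of 19569 windows of coding genes, 27.5% held CCAAT and 7.50% held TATAAA on either strand, so the matches describe these letters and nothing more.

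Other fibril-forming collagens were also higher in the fibroblasts than in all other cells of every library. COL5A2, part of the type V collagen that nucleates fibrils, had 497, 521, 604 and 649 CPM against 43.3 to 134 CPM in other cells. COL11A1 had 402, 345, 371 and 260 CPM against 21.6 to 33.1 CPM. Of the 10 fibrillar collagen genes, 8 were higher than in other cells in all 4 libraries. The same held for 8.01% of all 22452 genes and for 27.7% of the 4112 genes with at least 50 CPM in the fibroblasts, and the list counts below are to be read against these shares. Their summed level was 16654 CPM in E50_1 and 7369 to 7755 CPM in the E60 libraries, against 196 to 380 CPM in other cells.

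Among the network and basement membrane collagens, COL8A1, a short-chain collagen, had 1096, 211, 393 and 260 CPM against 4.55 to 11.2 CPM in other cells. The chain COL4A2 of vascular basement membranes overlapped the mural range, at 312, 451, 276 and 376 CPM against 258 to 708 CPM in mural cells. COL18A1, from which endostatin is cut, had 165, 169, 189 and 228 CPM. Of 10 such genes found, 6 were higher than in other cells in all 4 libraries, and COL10A1 was at 0.

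Collagens that sit on fibrils or form beaded filaments followed. COL12A1 had 1074, 444, 313 and 1003 CPM, COL6A3 of the beaded filaments had 113, 352, 182 and 224 CPM, and COL6A1 had 244, 395, 80.0 and 198 CPM. All 3 were higher than in other cells in 4 of 4 libraries. COL13A1, a membrane collagen, was uneven, with 27.3, 254, 7.27 and 283 CPM. Of 15 genes of this list found, 7 were higher than in other cells in all 4 libraries.

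The collagen genes other than COL1A1 made up 2.09% of the remaining UMIs of the fibroblasts in E50_1, and 1.06%, 0.973% and 1.11% in E60_1, E60_2 and E60_3. The E60 mean was 1.05% ± 0.0691 (SD, n = 3). In mural cells the share was 0.157% to 0.319%, in endothelial cells 0.155% to 0.3001%, and in microglial cells 0.0516% to 0.102%. With 1 library at E50 there was no test of this difference, and the exact test against E70 that had been planned could not be run, because no E70 library held 10 fibroblasts.

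**Figure D2:**
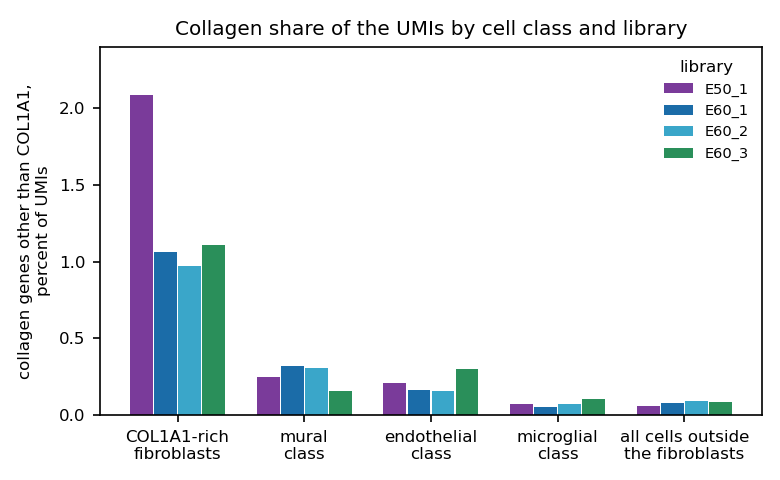
Bars give the percent of UMIs from the collagen genes other than COL1A1, by cell class and library. The 39 collagen genes found include COL1A1. The fibroblasts stand at 2.09% in E50_1 and 0.973% to 1.11% at E60, above the other classes of each library.

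Genes that fold, cut and cross-link collagen went with the collagens. SERPINH1, the collagen chaperone HSP47, had 1005, 303, 458 and 329 CPM against 61.6 to 202 CPM in other cells. PCOLCE, which speeds the removal of the C-propeptide, had 549, 500, 327 and 142 CPM against 3.07 to 8.31 CPM. SPARC, a collagen-binding glycoprotein, had 949, 740, 575 and 383 CPM but reached 545 CPM in other cells and 814 CPM in mural cells. PPIB, a proline isomerase of the endoplasmic reticulum, had 707, 669, 677 and 241 CPM. Of the 31 processing genes, 21 were higher than in other cells in all 4 libraries, with a median ratio of 2.75.

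Proteoglycans were next. BGN (biglycan) had 1169, 845, 1084 and 797 CPM and VCAN (versican) 1094, 1036, 924 and 704 CPM. OGN (osteoglycin) had 486, 275, 429 and 311 CPM. LUM (lumican) had 152, 810, 313 and 213 CPM, which overlapped the 5.37 to 405 CPM of mural cells. After thinning, mural cells kept a LUM UMI more often than the fibroblasts in E50_1 (32.7% against 15.8%) and E60_2 (40.2% against 36.8%). In E60_1 they kept one less often (50.4% against 66.7%). Of 16 proteoglycan genes found, 10 were higher than in other cells in all 4 libraries and 5 were higher than in mural cells in all 4.

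Matrix glycoproteins included FN1 (fibronectin), with 1020, 275, 742 and 738 CPM, and FBLN1 (fibulin 1), with 422, 437, 495 and 318 CPM. POSTN (periostin), which binds collagen in dense connective tissue, had 509, 451, 1048 and 368 CPM against 5.02 to 14.5 CPM in other cells. MGP, an inhibitor of mineral deposition, had 343, 1543, 589 and 63.1 CPM, the widest spread of the 4 leading genes of this list. The 219 UMIs of MGP in E60_1 came from 6 cells, with 105 in 1 cell. In E60_2, 1 cell gave 65 of the 81 UMIs of MGP. Of 27 genes, 19 were higher than in other cells in all 4 libraries.

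Laminins, the cross-shaped proteins of basement membranes, did not set the fibroblasts apart from mural cells. LAMC1 had 300, 240, 116 and 201 CPM, LAMA4 208, 106, 50.9 and 215 CPM, LAMB1 121, 183, 80.0 and 167 CPM, and LAMA1 55.9, 127, 65.5 and 73.6 CPM. Of 10 laminin genes found, 3 were higher than in all other cells in every library and 1 was higher than in mural cells in every library.

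Enzymes that break down matrix, and their inhibitors, were led by TIMP3 with 668, 479, 386 and 771 CPM and TIMP1 with 657, 486, 684 and 126 CPM, both inhibitors of metalloproteinases. A single cell gave 60 of the 94 TIMP1 UMIs of E60_2. The proteinase ADAMTS12 had 146, 310, 218 and 444 CPM against 17.7 to 35.3 CPM in other cells. The metalloproteinase MMP16 had 209, 409, 415 and 219 CPM, within reach of the 148 to 242 CPM of other cells. Of 19 genes found, 10 were higher than in other cells in all 4 libraries.

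Retinoic acid genes were a feature the rule did not use. CRABP2, which carries retinoic acid to its nuclear receptors, had 948, 507, 1266 and 905 CPM against 0.691 to 14.5 CPM in other cells, and CRABP1 had 585, 1162, 1608 and 559 CPM. CYP1B1, an oxidising enzyme that can act on retinol, had 142, 444, 218 and 210 CPM against 0.424 to 3.92 CPM. ALDH1A2, the enzyme that makes retinoic acid, had 15.6 CPM in E50_1 and 91.6, 94.6 and 145 CPM at E60. Of the 20 genes of the pathway, 13 were higher than in other cells in all 4 libraries. CYP26A1 and CYP26C1, which degrade retinoic acid, were at 0. The related CYP26B1 was present, with 122 UMIs in all fibroblasts together.

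Of the secreted signals, CXCL12 had 343, 4445, 655 and 1127 CPM against 20.3 to 89.4 CPM in other cells, and was higher in 4 of 4 libraries. Its level differed widely between libraries, with E60_1 highest and E50_1 lowest. MDK (midkine) had 2491, 1437, 2284 and 1198 CPM, and BMP6 112, 359, 226 and 380 CPM against 12.0 to 22.8 CPM. PTN (pleiotrophin) was at 800, 2733, 3739 and 1625 CPM, and other cells of these libraries held 1470 to 5497 CPM. Of 32 signal genes found, 13 were higher in the fibroblasts than in other cells in all 4 libraries.

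Binding proteins and antagonists of growth factors were abundant. IGFBP6, which binds IGF2, had 2660, 726, 1513 and 393 CPM against 7.17 to 20.3 CPM in other cells. In E60_1, however, 1 cell gave 71 of the 103 UMIs of IGFBP6, and in E60_2 1 cell gave 102 of the 208. The Wnt antagonist SFRP1 had 1108, 366, 473 and 424 CPM, NBL1, which binds BMPs, had 596, 275, 298 and 387 CPM, and FSTL1 had 429, 317, 349 and 443 CPM. Of 26 genes, 14 were higher than in other cells in all 4 libraries, and the BMP antagonist NOG was at 0.

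Receptors of growth factors and matrix followed. ITGB1, the shared beta-1 chain of collagen and laminin receptors, had 312, 317, 255 and 225 CPM against 126 to 203 CPM in other cells, and ITGAV had 320, 162, 226 and 165 CPM. The fibroblast growth factor receptor FGFR1 had 247, 225, 182 and 215 CPM and FGFR2 298, 134, 160 and 219 CPM. Of 34 receptors, 18 were higher than in other cells in all 4 libraries, with a median ratio of 1.91.

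Among the transcription factors, TBX15 had 194, 141, 211 and 245 CPM against 1.56 to 6.51 CPM in other cells. ZIC1, a zinc finger gene of the dorsal midline and meninges, had 32.5, 120, 160 and 167 CPM. NR2F2 had 89.6, 317, 189 and 199 CPM, and EBF1 335, 317, 226 and 176 CPM against 172 to 1690 CPM in mural cells. Of 35 factors, 11 were higher than in other cells in all 4 libraries a share near that of all genes with at least 50 CPM, and 9 were at 0, among them FOXC2, FOXD1, SIX2, TBX20, TWIST2, TCF21, HIC1 and HAND2.

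Junction and transport genes of the meningeal barrier were measured as 24 genes, of which 13 were higher than in other cells in all 4 libraries. GJA1, the gap junction protein connexin 43, had 1134, 810, 2051 and 1293 CPM against 20.3 to 111 CPM in other cells. CLDN11, a tight junction protein of the arachnoid barrier, had 268, 895, 829 and 650 CPM against 8.60 to 39.8 CPM. The bicarbonate transporter SLC4A4 had 469, 557, 684 and 627 CPM. The glutamate transporter SLC1A3, which glia also carry, had 157, 1691, 626 and 970 CPM against 649 to 1036 CPM in mural cells.

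Markers of the pia, arachnoid and dura were summed by layer. The summed level of the 7 pia genes found was 684 to 1508 CPM against 116 to 288 CPM in other cells, that of the 10 arachnoid genes was 1881 to 2750 CPM against 89.1 to 183 CPM, and that of the 8 dura genes 1872 to 4037 CPM against 305 to 822 CPM. In mural cells the pia, arachnoid and dura sums reached 857, 660 and 1465 CPM, and in endothelial cells the dura sum was 1089 to 1459 CPM. In each library the fibroblast sum was the higher one. Of these lists 5, 8 and 6 genes were higher than in other cells in all 4 libraries. FOXP1, counted with the dura genes, had 1448, 817, 1477 and 1005 CPM.

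**Figure D3:**
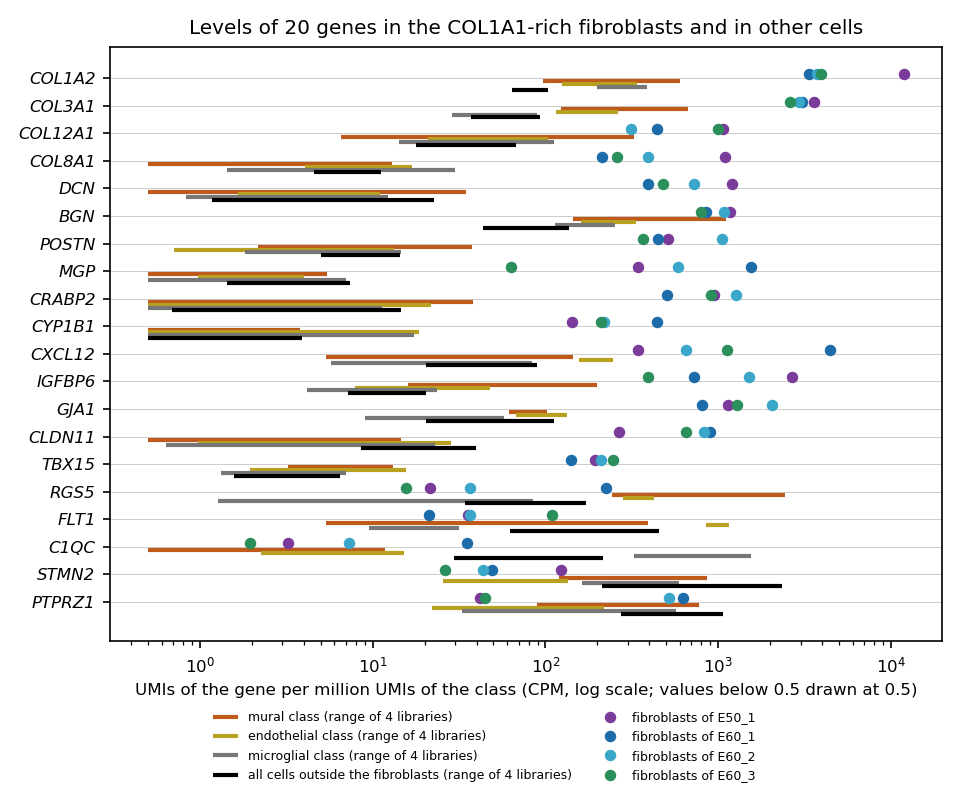
Points give the CPM of 20 genes in the fibroblasts of each of 4 libraries, and lines the range over the same libraries in mural, endothelial, microglial and all other cells, on a log axis. Points for COL3A1, DCN, CRABP2, GJA1 and TBX15 lie above every line, and those for RGS5, FLT1, C1QC and STMN2 do not.

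Markers of other cell types were followed to see what else the cells held. The mural gene RGS5 was at 21.4, 225, 36.4 and 15.6 CPM in the fibroblasts, against 242 to 2429 CPM in mural cells, which it helped to define. The 17 mural genes summed to 282 to 838 CPM, none was higher than in mural cells in all 4 libraries, and CNN1 was at 0. In 25 of the 298 fibroblasts RGS5 and PDGFRB together reached 5 UMIs. The 15 endothelial genes summed to 437 to 561 CPM with SOX17 at 0, the 11 microglial genes to 52.0 to 120 CPM with CD68 at 0, and the 7 erythroid genes to 14.5 to 31.2 CPM with HBZ at 0, all 3 limited in part by the rule itself. Schwann cell and crest genes summed to 35.7 to 197 CPM, choroid and epithelial genes to 21.1 to 138 CPM, and eye and muscle genes to 21.1 to 93.7 CPM, with MYOD1, MYF5 and MYOG at 0.

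Glial genes moved with the library. The 11 glial markers found summed to 221 CPM in the fibroblasts of E50_1, 2261 CPM in E60_1, 1229 CPM in E60_2 and 118 CPM in E60_3. In the other cells of those libraries they summed to 1501, 4365, 1908 and 1542 CPM. HES5 and OLIG2 were at 0 in the fibroblasts. The study did not find OLIG2 in its oligodendrocyte precursor clusters either, so the 0 of OLIG2 says little. AQP4, the astrocyte water channel, had 521 CPM in the fibroblasts of E60_1 and 5.21 CPM in those of E60_3. The 12 neuronal markers summed to 832 CPM in E50_1 and 263 to 386 CPM at E60, against 8866 CPM and 769 to 4030 CPM in the other cells. The part of glial and neuronal RNA in the fibroblast values was not tested, and 21 fibroblasts were among the 6% of cells with the highest doublet scores of their library.

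Across all genes, 4112 had at least 50 CPM in the fibroblasts on average, and their median ratio to the other cells was 1.08. Of these genes, 1138 were higher than in other cells in all 4 libraries, 111 had a ratio above 10 and 31 a ratio above 50. Among the 15 with the largest ratio were CYP1B1, MGP, IGFBP6, CRABP2 and DCN, described above. MPZL2, an adhesion protein of epithelia, had 136, 162, 298 and 110 CPM against 0.414 to 1.46 CPM in other cells. GJB6, the gap junction protein connexin 30, had 305, 49.3, 196 and 95.04 CPM. SFRP5, a Wnt antagonist, had 29.9, 49.3, 72.7 and 55.3 CPM, PI15 had 296, 106, 80.0 and 197 CPM, and the chemokine CCL19 had 293, 21.1, 102 and 59.9 CPM. TNMD, the tendon glycoprotein tenomodulin, had 177, 296, 291 and 117 CPM against 1.68 to 4.81 CPM. MMP13 and IBSP also reached this list, but through single cells.

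A few cells carried bone genes. The 12 skeletal markers summed to 597, 3748, 524 and 260 CPM, and 2 of them were higher than in other cells in all 4 libraries. IBSP, a sialoprotein of bone matrix, was found in 4 fibroblasts, with 55 UMIs in 1 cell of E50_1, 63 UMIs in 1 cell of E60_1, 3 UMIs in 1 cell of E60_3 and 12 UMIs in 1 cell of E70_3. The E60_1 cell also held 409 of the 424 UMIs of SPP1 (osteopontin) of the fibroblasts of that library, 53 UMIs of the collagenase MMP13 and 14 UMIs of RUNX2, the transcription factor of bone-forming cells. The E50_1 cell held 27 UMIs of RUNX2 and 76 of SPP1. The E70_3 cell held 29 UMIs of RUNX2, 8 of IFITM5 and 653 of COL1A1, the highest count of COL1A1 in any fibroblast. The cells of E50_1 and E60_3 were among those with high doublet scores, and those of E60_1 and E70_3 were not.

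The genes that differed between E50 and E60 were tested with edgeR's quasi-likelihood test on the summed counts of E50_1 against the 3 E60 libraries. With 1 library at E50 the fit had 2 residual degrees of freedom, and E50_1 was assumed to vary like the E60 libraries. Of 11115 genes tested, 3 (0.027%) passed a Benjamini-Hochberg adjusted p under 0.05, all 3 lower at E60, and 667 had an unadjusted p under 0.05. DESeq2 called 25 genes.

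SFRP2, a secreted Wnt antagonist, had 854 CPM in the fibroblasts of E50_1 and 21.1, 29.1 and 26.7 CPM in those of E60_1, E60_2 and E60_3. The groups did not overlap, and SFRP2 was lower at E60 by a log2 fold change of -5.18 (SE 0.51, edgeR adjusted p = 0.0264). In the other cells of these libraries it had 28.6, 43.2, 17.0 and 8.10 CPM, and the E50_1 value lay within the E60 range. TUBB3, a neuronal tubulin, fell from 333 CPM to 7.04, 7.27 and 1.95 CPM (log2 fold change -6.78, edgeR adjusted p = 0.0264). C1QTNF4 fell from 222 CPM to 7.04, 7.27 and 1.95 CPM (log2 fold change -6.20, edgeR adjusted p = 0.0457). The fibroblast values of TUBB3 and C1QTNF4 equal 1 UMI in E60_1, 1 in E60_2 and 3 in E60_3. Their fold changes thus rest on E60 values near the floor. Both had lower values at E60 in the other cells too, without passing the test there. In those cells TUBB3 had 3057 CPM in E50_1 and 22.3 to 45.4 CPM at E60, and C1QTNF4 had 54.0 CPM and 2.33 to 3.84 CPM. The difference beyond the other cells of the same library passed the edgeR test for 0 genes (785 with an unadjusted p under 0.05), and its adjusted p was 0.229 for SFRP2 and 0.997 for TUBB3. Without E60_2 no gene passed, and the adjusted p of all 3 was 0.250, while without E60_3 469 of 4241 genes passed and without E60_1 81 passed, with these 3 among them in both.

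**Figure D4:**
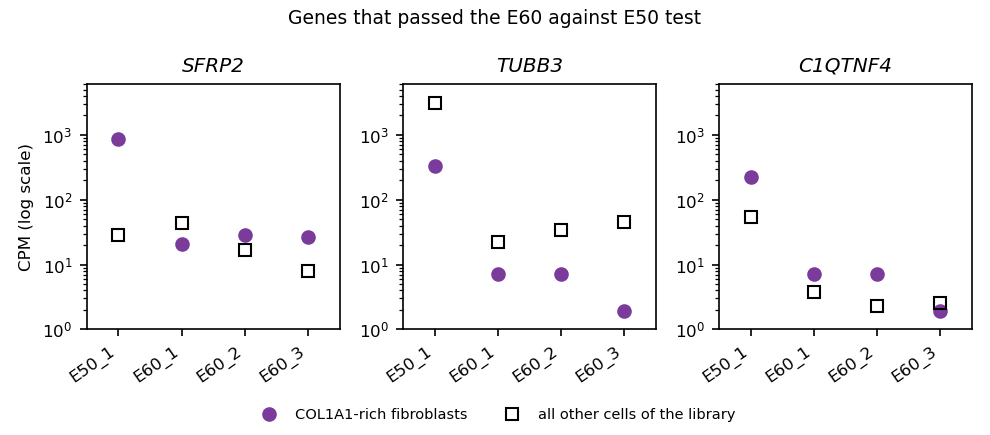
The CPM of SFRP2, TUBB3 and C1QTNF4 in the fibroblasts (filled circles) and in all other cells (open squares) of each library is drawn on a log axis. Only for SFRP2 do the other cells of E50_1, at 28.6 CPM, lie within the range of the other cells at E60.

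By list, SFRP2 among the 21 binding proteins tested and TUBB3 among the 9 neuronal genes tested were the only list genes called. The median log2 fold change over all genes was 0.03. It was -0.50 over 7 fibrillar collagens, -0.71 over 30 collagen processing genes, -0.42 over 14 proteoglycans, -1.22 over the 21 binding proteins, 0.29 over 16 retinoid genes and 0.07 over 22 barrier genes. COL1A2 (log2 fold change -1.87, edgeR adjusted p = 0.215) and COL8A1 (-2.11, edgeR adjusted p = 0.340) did not pass, nor did ALDH1A2 (2.71, edgeR adjusted p = 0.448) or CXCL12 (2.41, edgeR adjusted p = 0.819). The sum of heat shock and immediate early genes was highest in E50_1, where it came to 11843 CPM in the fibroblasts and 5034 CPM in the other cells, against 3691 to 4772 CPM and 3048 to 4320 CPM at E60. HSP90AA1 had 3430 CPM in the fibroblasts of E50_1 and 1025 to 1564 CPM at E60, and HSPA8 2567 CPM and 416 to 613 CPM. EGR1, an immediate early gene, had 286 CPM in E50_1 and 162, 393 and 433 CPM at E60. The median over 11 such genes tested was -1.77, none was called, and the part of this response in the stage difference was not tested.

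Genes of DNA replication and mitosis gave 0.102% of the UMIs of the fibroblasts in E50_1 and 0.138%, 0.136% and 0.0960% at E60 (0.123% ± 0.0237, SD, n = 3), so the E50 share lay within the E60 range. The other cells of these libraries had 0.114%, 0.129%, 0.154% and 0.1004%. TOP2A, the topoisomerase of dividing cells, had 103, 218, 145 and 104 CPM.

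The fibroblasts were not uniform. Clustering on genes outside the lists gave 7 clusters of 16 to 81 cells. They are described here with list genes that were kept out of the clustering and with no test. The library mean was taken off first in the E50 and E60 libraries. From the few E70 and adult cells the mean of all fibroblasts was taken off instead, so these cells were centred in another way. At a lower and a higher resolution there were 6 and 10 clusters. Cluster 1 (81 cells, 79 of E50_1) and cluster 6 (24 cells, all of E50_1) came wholly or nearly so from 1 library, and cluster 7 (16 cells) was all of E60_3, so for them cell type and library cannot be told apart.

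Of the 120 fibroblasts of E50_1, 79 were in cluster 1 and 24 in cluster 6. Cells of E50_1 had 14610 CPM of COL1A2 in cluster 1 and 3096 CPM in cluster 6. SFRP2 had 1198 CPM in cluster 1 and 0 in cluster 6, IGFBP6 3566 and 235 CPM, and MFAP4, a microfibril protein, 446 and 28 CPM. The keratin gene KRT8 went the other way, with 14 CPM in cluster 1 and 438 CPM in cluster 6, as did CRABP1 (269 and 2475 CPM), CLDN11 (36 and 1417 CPM), the epithelial cadherin CDH1 (8 and 119 CPM) and the organic anion transporter SLC22A8 (2 and 195 CPM). In cluster 4, which held 12 cells of E50_1, SFRP2 had 617 CPM in that library.

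The 122 fibroblasts of E60_3 fell mainly into cluster 2 (49 cells), cluster 3 (28 cells), cluster 5 (18 cells) and cluster 7 (16 cells). Cluster 2 (70 cells, of E60_1, E60_2, E60_3, E70 and all 3 adult cells) had, in E60_3, 2526 CPM of CXCL12 against 380 CPM in cluster 3, 84 CPM in cluster 5 and 167 CPM in cluster 7. In the same order of clusters, COL13A1 had 584, 168, 4 and 24 CPM and CYP1B1 368, 152, 103 and 32 CPM. ALDH1A2, with 203, 220, 7 and 40 CPM, was at a like level in clusters 2 and 3. Cluster 5 (25 cells, of E60_1, E60_2, E60_3 and E70_3) had, in E60_3, 4568 CPM of FOXP1 against 167, 254 and 405 CPM in clusters 2, 3 and 7. It also had 634 CPM of the sulfate transporter SLC26A2 against 15, 33 and 0 CPM, 473 CPM of BMPER, which binds BMPs, against 20, 25 and 16 CPM, and 293 CPM of SFRP5 against 0 in each of the others. Cluster 7 had 986 CPM of the sulfate transporter SLC13A4 against 10, 77 and 0 CPM in clusters 2, 3 and 5, 890 CPM of the proline transporter SLC6A20 against 65, 394 and 7 CPM, and 557 CPM of the GABA transporter SLC6A13 against 204, 171 and 0 CPM. DCN in E60_3 was at 1741 CPM in cluster 7, 294 CPM in cluster 2, 463 CPM in cluster 3 and 297 CPM in cluster 5. Cluster 7 of E60_3 and cluster 6 of E50_1 both had KRT8, CLDN11, CRABP1 and SLC13A4 above cluster 1 or cluster 2 of their own library. CRABP1 did not mark cluster 7 within E60_3, where it had 1105 CPM in cluster 7 and 1684 CPM in cluster 3.

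Cluster 3 (55 cells, from E50_1 and the 3 E60 libraries) had the highest glial genes, with 358 CPM of PTPRZ1 and 182 CPM of AQP4, and 9 of its cells had high doublet scores. Within it, PTPRZ1 was at 1192 CPM in E60_1, 948 CPM in E60_2 and 124 CPM in E60_3. The glial markers summed over all fibroblasts had the same order, at 2261, 1229 and 118 CPM. In the other cells of these libraries they summed to 4365, 1908 and 1542 CPM, a smaller gap between E60_2 and E60_3. Cluster 4 (27 cells, from the same 4 libraries) had the mitotic genes, with 689 CPM of TOP2A and 891 CPM of UBE2C against at most 45 and 36 CPM in the other clusters. Its median was 18765 UMIs per cell, the highest of the 7, and 8 of its cells had high doublet scores.

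**Figure D5:**
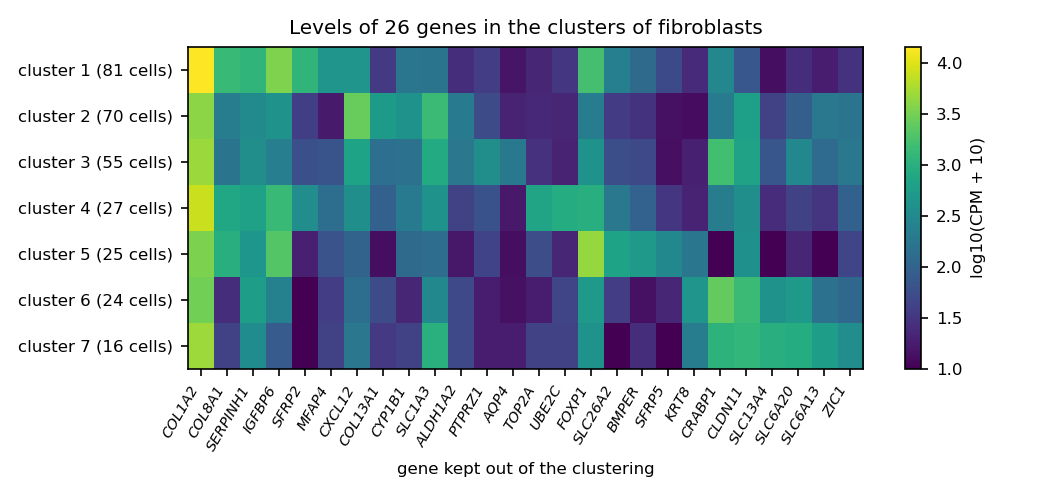
Colour gives log10(CPM + 10) of 26 genes kept out of the clustering, for the 7 clusters of fibroblasts with their numbers of cells. COL1A2 is at least 3096 CPM in every cluster, and the highest value is in cluster 1 for SFRP2, cluster 2 for CXCL12, cluster 4 for TOP2A, cluster 5 for FOXP1, cluster 6 for KRT8 and cluster 7 for SLC13A4.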

How the data were processed

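The authors captured cells and nuclei with the 10x Genomics version 2 kit and counted UMIs with Cell Ranger (version 2.20 in the submitters' notes) against Sscrofa11.1, counting reads in introns too. The deposited count tables hold raw UMI counts per gene and cell, 1 table per library, with 22452 genes. Introns raise the counts of long genes, and the strand and paralog handling of single genes was not examined. Symbols were added to 987 Ensembl IDs from the name table given. The members and the 29 gene lists (457 of 482 genes found) were chosen with earlier results of these data known. Member cells were selected by the rule stated in the report, with PECAM1 alone because CLDN5 was not analysed here, and their counts summed per library. Genes named were the 4 with the highest mean CPM in a list, the 15 with the largest ratio to other cells, and those called; a few items withheld for evaluation are not reported here. The exact permutation test compared E60 with E70 shares. The planned E60 against E70 gene test needed 10 members a library and could not be run, so E60 was tested against E50, a contrast chosen after seeing the data, with edgeR 4.0.16 (TMM, filterByExpr, glmQLFit) and DESeq2 1.42.0 as the alternative; SE is the log2 fold change over the root of F. Scanpy 1.11.5 gave 1000 variable genes, 15 components and Leiden clusters at resolution 0.6. Scrublet removed no cell from the values in the report. edgeR and the clustering were tested on simulated data. The labels share replicate numbers between E60 and E70, and whether these pair the libraries was checked.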

Additional observations from a re-analysis of the deposited data

How the results depend on the processing

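The sign of the share difference between E60 and E70 held under every alternative run, with values from -1.80 (rule without its limits) to -1.05 points (stricter rule). Leaving out 1 library moved it from -2.39 to -0.314, the last without E60_3. With the replicate number as a block it was -1.67 (exact sign-flip p = 0.25, the smallest for 3 pairs). The block rests on a shared number only: same-numbered libraries correlated at -0.102, 0.0498 and -0.0401 in their deviations from the stage mean. Within sequencing pools it was -0.164 and -4.46. For the E60 against E50 test no paired analysis was possible because E50 had 1 library.

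The 3 genes called between E50 and E60 became 85 under the stricter rule, 16 without the limits, 29 without the highest doublet scores, 12 without mural-like cells, 155 with no filter and 25 with DESeq2. Leaving out an E60 library gave 0 to 469, and the difference beyond other cells gave 0. All 3 genes were among those called, except without E60_2 and beyond other cells. The cause was not tested. These alternatives, and those of the next sentences, were chosen after seeing the data. The collagen share difference, -1.04 points, was -1.91 with COL1A1 kept, and -1.07 to -1.002 leaving out an E60 library. The cell cycle difference, 0.0214 points, was 0.0612 under the stricter rule, 0.0732 without the highest doublet scores, -0.0068 without mural-like cells, -0.00041 for G2/M genes alone, and 0.0140 to 0.0351 leaving out an E60 library. The planned E60 against E70 tests of genes, collagen and cell cycle genes, with their alternatives, were not run, since the E70 libraries held 4 fibroblasts in all. Shallow E60_1 and E60_2 fibroblasts limit all 4-library values.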

Other observations

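The 7 fibroblasts outside the E50 and E60 libraries are given as counts, since they are too few to sum. The 3 adult cells had 36, 21 and 21 UMIs of COL1A1 and 7, 27 and 36 UMIs of DCN. IGFBP6 gave 4, 53 and 124 UMIs in them, and POSTN, CRABP2 and SFRP2 gave 0. All 3 held ALDH1A2, with 2, 3 and 3 UMIs, and CLDN11, with 4, 9 and 5 UMIs. Of the 3 adult cells, 2 were among the 6% with the highest doublet scores of their library. RGS5 and PDGFRB together reached 5 UMIs in 1 of the 3. What part of these counts came from other cells was not tested. The 4 E70 cells had 52, 46, 42 and 653 UMIs of COL1A1, and each held POSTN, with 11, 26, 5 and 29 UMIs. In the E70_2 cell SFRP2 gave 10 UMIs, and in the other E70 cells 0.

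COL1A2 was also seen in cells outside the fibroblasts. In microglial cells of the 4 fetal libraries it averaged 265 CPM and COL3A1 60.8 CPM, while in the fibroblasts of these libraries COL1A2 and COL3A1 ranged over 3374 to 11944 CPM and 2610 to 3598 CPM. What the microglial COL1A2 counts come from was not tested.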
